A study of Homo sapiens with 4 samples.

Results

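The EGFR (ERBB) signaling genes described here are 4 ligands (HBEGF, AREG, EREG and TGFA), 3 receptors (EGFR, ERBB2 and ERBB3) and 3 feedback inhibitors (ERRFI1, SPRY2 and SPRY4). They were taken by gene symbol from the authors' deposited table of 16376 genes, and all 10 were listed. The samples were HCT116 cells, an established human colon cancer cell line, 2 of them exposed to hydrogen peroxide (H2O2) and 2 left untreated (Control). No H2O2 dose or exposure time is stated in the labels. Separate cultures are not stated either, so the p-values speak only of the scatter among these 4 samples, which may be technical.

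ERBB receptors are tyrosine kinases of the cell surface that pair up when a ligand binds and switch on the RAS-ERK, PI3K and PLC-gamma routes. The ligands are made as membrane-anchored precursors and are released by cell-surface proteases, a step that several kinds of cell stress can trigger. The same signaling raises transcripts of its own brakes, among them ERRFI1, which binds the receptor kinase domain, and the Sprouty proteins, which act on the way to ERK. In intestinal epithelium these ligands and receptors are known for driving growth and repair.

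The start-site regions of the 4 members whose H2O2 libraries both lay above both Control libraries are printed here. Of all listed genes, 26.3% were separated upward in this way. Of these 4 members, only HBEGF passed an adjusted p of 0.05 in the authors' deposited table. RefSeq windows on GRCh38.p14, from 250 bases before to 50 bases after an annotated start, were found for 9 of the 10 members (13 windows). ERBB3 had no entry. HBEGF lies at chr5:140346554-140346853 (minus strand), AREG at chr4:74444886-74445185 (plus strand), EREG at chr4:74364895-74365194 (plus strand) and ERRFI1 at chr1:8026260-8026559 (minus strand). Capitals mark matches, on either strand, to any of the motifs listed after the sequences.
HBEGF: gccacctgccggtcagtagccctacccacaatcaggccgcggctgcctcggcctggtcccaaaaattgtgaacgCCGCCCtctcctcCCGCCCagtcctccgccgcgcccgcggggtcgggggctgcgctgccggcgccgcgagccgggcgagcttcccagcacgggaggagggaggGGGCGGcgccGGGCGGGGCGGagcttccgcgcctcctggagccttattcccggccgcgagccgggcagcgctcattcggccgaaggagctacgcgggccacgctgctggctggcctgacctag
AREG: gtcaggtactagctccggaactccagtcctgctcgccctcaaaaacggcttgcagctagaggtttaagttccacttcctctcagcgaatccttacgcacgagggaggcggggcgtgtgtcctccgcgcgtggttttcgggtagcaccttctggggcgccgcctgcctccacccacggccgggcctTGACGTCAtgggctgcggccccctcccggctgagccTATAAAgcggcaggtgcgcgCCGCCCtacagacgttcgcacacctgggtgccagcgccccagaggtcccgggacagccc
EREG: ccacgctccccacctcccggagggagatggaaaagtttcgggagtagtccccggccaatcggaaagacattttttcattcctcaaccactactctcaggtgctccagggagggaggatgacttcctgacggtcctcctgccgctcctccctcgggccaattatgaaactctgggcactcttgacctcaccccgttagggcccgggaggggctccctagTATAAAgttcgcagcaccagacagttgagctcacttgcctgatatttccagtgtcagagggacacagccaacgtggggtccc
ERRFI1: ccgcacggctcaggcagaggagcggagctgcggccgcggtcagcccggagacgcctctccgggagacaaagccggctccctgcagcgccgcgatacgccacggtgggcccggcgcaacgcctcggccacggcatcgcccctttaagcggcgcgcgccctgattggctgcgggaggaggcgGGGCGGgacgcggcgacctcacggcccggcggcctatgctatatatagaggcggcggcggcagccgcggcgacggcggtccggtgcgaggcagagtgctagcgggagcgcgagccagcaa

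The motifs searched on both strands were AP-1 (TGANTCA), the cyclic AMP response element CRE (TGACGTCA), the SRF-binding CArG box, EGR (GCGNGGGCG), ETS (CCGGAAGT), the TATA box (TATAAA) and the GC box (GGGCGG). Matches of the GC box can overlap each other or an EGR match. AREG held a GC box and a CRE, which begins 65 bases before its start, and 1.85% of all 35116 RefSeq windows hold a CRE. AREG and EREG each held a TATA box, beginning 29 and 32 bases before the start, against 11.5% of all windows. HBEGF held 5 GC boxes, and 45.0% of all windows hold at least 1. ERRFI1 held a GC box 70 bases before its start and no match to the other motifs. AP-1 motifs, present in 7.71% of all windows, were found in none of these 4 windows. They occurred in the ERBB2 window and in the second of the EGFR windows. EGR motifs (9.43% of all windows) were in the SPRY4 window and in 1 of the SPRY2 windows, ETS motifs (4.14%) in the ERBB2 window, and CArG boxes (1.29%) in no member's window.

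Whole read counts of the 4 libraries were recovered from the group means in the authors' deposited table, with 7365032 and 6858809 reads for H2O2 and 7309731 and 6892854 for Control. The libraries are called the deeper and the shallower of their group, because the table ties none to a replicate number. Group A of the header was read as Control, following the order of names in the table's title, and all directions depend on this reading. The Control libraries stood further apart than the H2O2 libraries, with a mean chi-square per gene of 7.13 between the Controls and 2.38 between the H2O2 libraries, where sampling noise alone gives about 1. The shallower Control was nearer to the H2O2 libraries (6.72 from the deeper and 5.98 from the shallower) than to the other Control, and the deeper Control stood at 12.9 and 11.7 from them. Normalized counts below are read counts divided by the library's size factor.

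HBEGF, the gene of heparin-binding EGF-like growth factor, was the 1 member that rose with H2O2, and no member fell, at an adjusted p under 0.05 in the authors' deposited table. Over all listed genes that test called 2.58% higher and 4.62% lower. In either direction it called 7.19%. With p-values left unadjusted, 4 ligand and inhibitor genes were higher (HBEGF, AREG, EREG and ERRFI1) and 2 receptor genes lower (EGFR and ERBB3) at 0.05, in the authors' deposited table and in limma alike. Of all genes, 7.72% were higher and 11.9% lower by that measure in the authors' deposited table (19.6% in either direction), and 8.48% and 11.7% in limma (20.2% in either direction). limma with Benjamini-Hochberg adjustment called HBEGF higher and no member lower, against 1.52% and 2.58% of all genes. When a library is left out, limma takes the spread between libraries from the other group alone. Without the deeper Control, limma called 3 members higher (HBEGF, EREG and ERRFI1) and 0 lower, and 3.71% and 4.81% of all genes. Without the shallower Control it called 3 higher (HBEGF, AREG and ERRFI1) and 2 lower (EGFR and ERBB3), and 10.6% and 11.6% of all genes. With the deeper, then the shallower, H2O2 library left out, HBEGF alone was called, against 0.635% and 1.29% of all genes higher and 1.1% and 1.84% lower. In bulk RNA such as this, fewer cells expressing a gene and less RNA per cell cannot be told apart.

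HBEGF had 250 and 240 reads in the H2O2 libraries, against 102 and 127 reads in the Control libraries. As normalized counts these were 241 and 250 with H2O2 and 97.8 and 130 in Control, so the lowest H2O2 value lay well above the highest Control value. The ratio of group means was 2.15 in the authors' deposited table (adjusted p = 8.21e-08), the 63rd smallest p-value of all listed genes. limma gave a log2 fold change of 1.11 ± 0.17 (SE, 2 libraries per group, adjusted p = 0.00192), with a 95% interval for the fold of 1.69 to 2.77. The Control libraries differed from each other by 0.41 on the log2 scale, the shallower being higher, and the H2O2 libraries by 0.049. Leaving out each library in turn gave limma log2 fold changes of 0.91 to 1.32 for HBEGF.

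AREG encodes amphiregulin, a ligand that binds EGFR. It had 451 and 420 normalized counts with H2O2, against 293 and 376 in Control. The groups did not overlap, yet the gap between the lowest H2O2 and the highest Control value was smaller than the gap between the Controls. In the authors' deposited table the log2 ratio of 0.38 missed the threshold (adjusted p = 0.0852), and limma gave 0.39 ± 0.14 (SE, adjusted p = 0.128). Its limma value was 0.57 without the shallower Control, 0.21 without the deeper Control and 0.24 after a correction for transcript length. The hg19 assembly, on which the table was built, carries a near-identical second copy of AREG under the name AREGB, which RefSeq on GRCh38.p14 lists as a synonym. How reads matching both copies were counted is not given in the sources used here, so the level of AREG is uncertain.

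EREG encodes epiregulin, a ligand that binds EGFR and ERBB4. It was the ligand with the highest counts, 3748 and 3869 normalized counts with H2O2 against 3478 and 2802 in Control. Both H2O2 values were above both Controls. The Controls differed by -0.31 on the log2 scale (shallower minus deeper), slightly more than the fitted change, which was 0.29 ± 0.12 (limma, SE, adjusted p = 0.2002). The log2 ratio in the authors' deposited table was 0.28 (adjusted p = 0.234). The limma value was 0.44 without the deeper Control and 0.13 without the shallower.

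TGFA encodes transforming growth factor alpha, a ligand of EGFR. It had 657 and 683 normalized counts with H2O2, against 596 and 662 in Control, and the groups overlapped. In the authors' deposited table its log2 ratio was 0.092 (adjusted p = 0.778). The 95% interval of the fold in limma was 0.902 to 1.26.

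**Figure D1:**
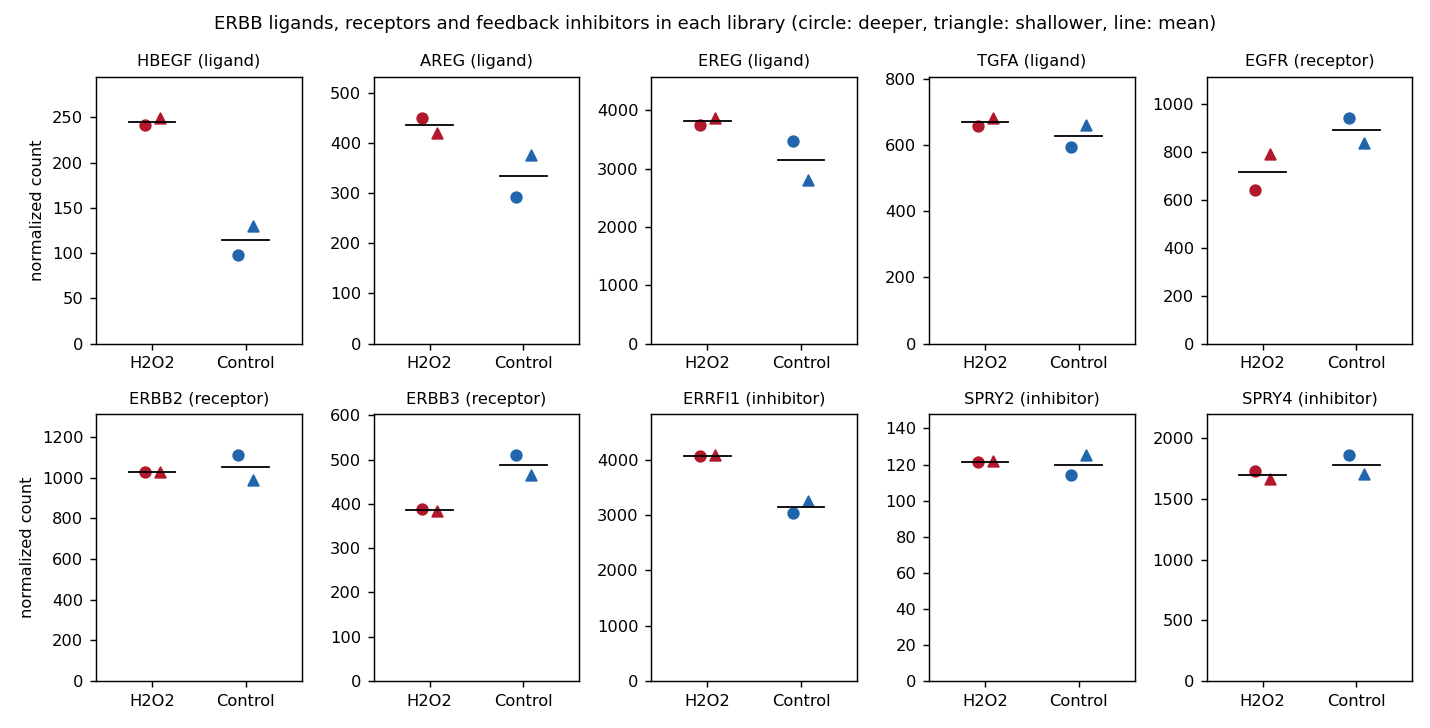
Normalized count (vertical axes, each starting at 0) of the 10 members in the H2O2 libraries (red, left) and the Control libraries (blue, right), with circles for the deeper library, triangles for the shallower and a line at the group mean. HBEGF shows the widest gap relative to its level, with 241 and 250 in the H2O2 libraries and 97.8 and 130 in the Control libraries.

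All 3 receptor genes had ratios below 1 in the authors' deposited table, as did 50% of all listed genes, and none passed the threshold. EGFR, the receptor that all 4 ligands bind, had 641 and 792 normalized counts with H2O2, against 943 and 838 in Control. The H2O2 values lay below both Controls but differed from each other by 0.30 on the log2 scale. The log2 ratio was -0.31 in the authors' deposited table (adjusted p = 0.127), and limma gave -0.32 ± 0.13 (SE, adjusted p = 0.168). The limma value stood at -0.40 without the shallower Control, at -0.17 without the deeper H2O2 library and at -0.13 after the length correction. EGFR shares 186 exonic bases with EGFR-AS1 on the opposite strand in GENCODE 29. Whether reads were counted by strand is not given in the sources used here, so reads of such pairs cannot be told apart. EGFR-AS1 itself had means of 15.9 with H2O2 and 26.4 in Control in the authors' deposited table, far below those of EGFR.

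ERBB3, a receptor with a weak kinase that signals by pairing with ERBB2 or EGFR, had 389 and 383 normalized counts with H2O2, against 510 and 466 in Control. The H2O2 libraries were nearly equal and both lay below the Controls. The log2 ratio was -0.34 in the authors' deposited table (adjusted p = 0.140), and limma gave -0.34 ± 0.12 (SE, adjusted p = 0.129). The limma value was -0.40 without the shallower Control, and the length correction brought it to -0.21. ERBB3 shares 31 exonic bases with AC034102.2, a gene on the same strand that was not listed.

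ERBB2 (HER2), the partner receptor with no known ligand of its own, had 1029 and 1026 normalized counts with H2O2, against 1111 and 991 in Control. The H2O2 values fell between the Controls. The log2 ratio was -0.033 in the authors' deposited table (adjusted p = 0.936). The 95% interval of the fold was 0.833 to 1.15 in limma, and the sign of the fitted change turned without the deeper Control (0.052) and after the length correction (0.12). ERBB2 shares 571 exonic bases with MIEN1 and 194 with PGAP3, both on the opposite strand, so part of its count is uncertain if strand was not used.

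ERRFI1 (MIG6) encodes a protein that binds and blocks the EGFR kinase domain. It had 4065 and 4084 normalized counts with H2O2, against 3044 and 3253 in Control. The H2O2 libraries agreed closely and both were above the Controls. The ratio was 1.29 in the authors' deposited table, the next smallest p-value among the members after HBEGF, and it missed the threshold (adjusted p = 0.0691). limma gave a log2 fold change of 0.37 ± 0.11 (SE, adjusted p = 0.0666), with a 95% interval for the fold of 1.10 to 1.52. The limma value was 0.32 without the deeper Control and 0.42 without the shallower Control, fits whose spread comes from the H2O2 libraries alone. It was 0.38 without the deeper and 0.37 without the shallower H2O2 library. ERRFI1 shares 155 exonic bases with the antisense gene AL034417.4.

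SPRY2 and SPRY4 encode Sprouty proteins, which restrain receptor signaling to RAS and ERK. SPRY2 had 122 and 122 normalized counts with H2O2, against 114 and 125 in Control. SPRY4 had 1735 and 1667 with H2O2, against 1861 and 1703 in Control. Both genes overlapped between groups, with log2 ratios of 0.024 and -0.067 in the authors' deposited table (adjusted p = 0.992 and 0.840). The 95% intervals of the fold in limma were 0.794 to 1.31 for SPRY2 and 0.816 to 1.12 for SPRY4, so a change of up to about those sizes cannot be told from none here. SPRY2 changed sign without the deeper Control (-0.041) and after the length correction (-0.072).

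**Figure D2:**
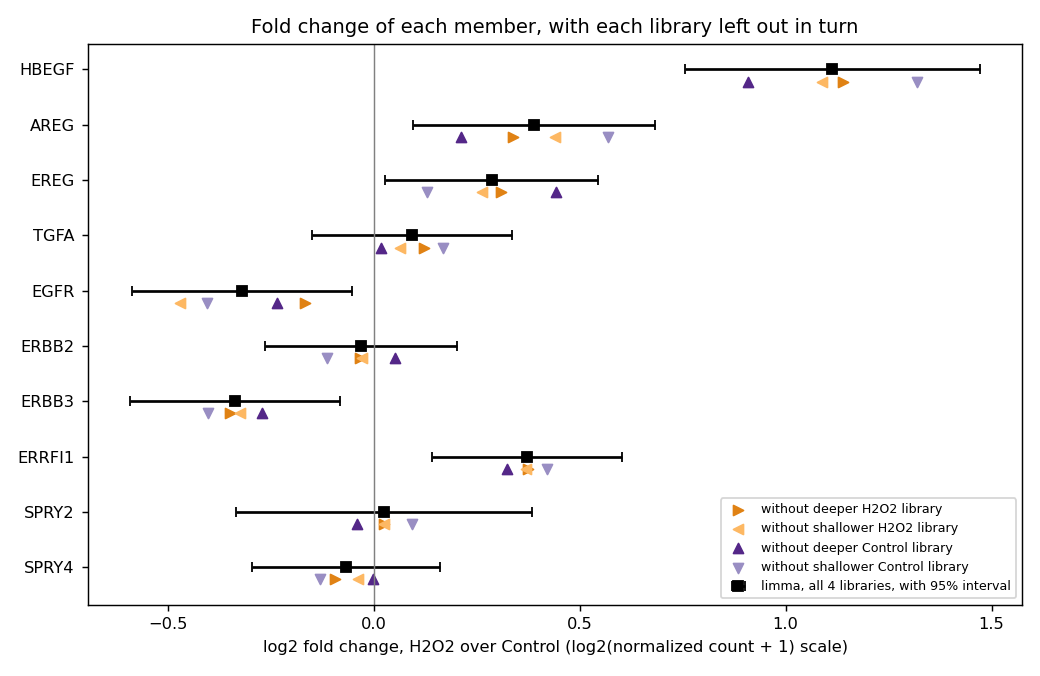
limma log2 fold change of each member, H2O2 over Control (horizontal axis, log2(normalized count + 1) scale), with squares and 95% interval bars for all 4 libraries and colored triangles for fits without 1 library. HBEGF stays between 0.91 and 1.32 in the fits without a library, and the triangles of SPRY2 and ERBB2 lie on both sides of 0.

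Between groups, 4 members had both H2O2 values above both Controls (HBEGF, AREG, EREG and ERRFI1) and 2 had both below (EGFR and ERBB3). Of all listed genes, 26.3% were separated upward and 25.6% downward in the same way, so these counts are close to the background. The median log2 ratio was 0.058 over the 10 members and 2.8e-04 over all genes in the authors' deposited table. By role the medians were 0.33 for the 4 ligands, -0.31 for the 3 receptors and 0.024 for the 3 inhibitors in the authors' deposited table. Between the Controls alone, the median difference (shallower minus deeper library, log2(normalized count + 1) scale) was 0.25 for the ligands, with EREG the other way, and -0.17 for the receptors. These medians have the signs of those with H2O2, and their part in the result was not tested.

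**Figure D3:**
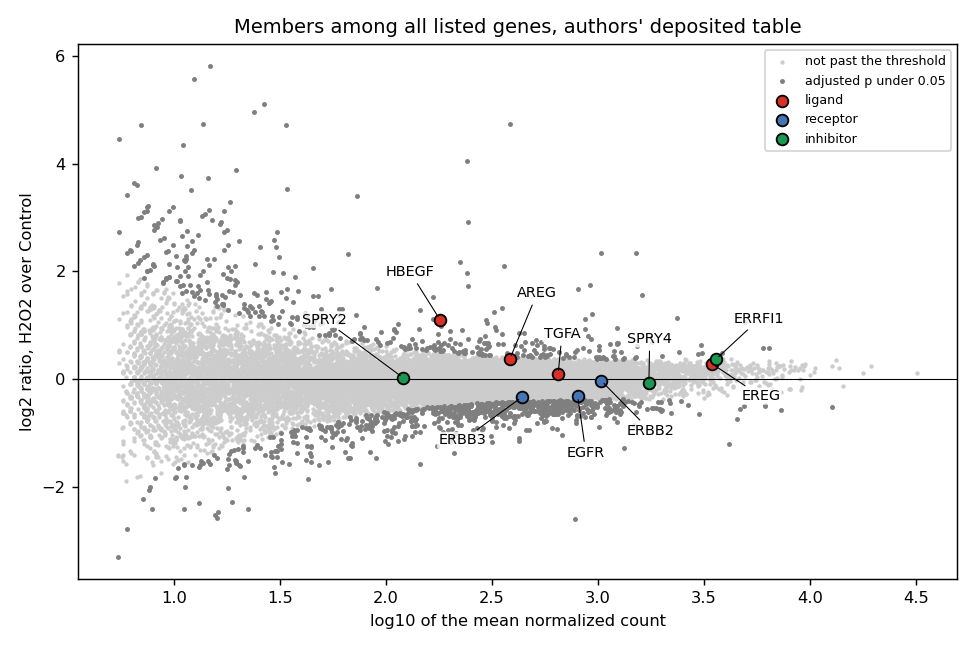
Log2 ratio of group means, H2O2 over Control (vertical axis), against log10 of the mean normalized count (horizontal axis) for 16375 genes with a finite ratio in the authors' deposited table, with ligands in red, receptors in blue and inhibitors in green. HBEGF, at 1.11, lies among the darker dots of genes past the threshold, and the other 9 members lie in the pale band.

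Levels were compared between genes as normalized counts per kilobase of exonic sequence (union of GENCODE 29 exons), averaged over the libraries of a group. ERRFI1 had the highest level, 973 per kb with H2O2 and 752 in Control, and EREG came next with 666 and 549. SPRY4 (259 with H2O2, 271 in Control) and AREG (264 and 203) followed, and their libraries overlapped each other with H2O2 but not in Control. TGFA stood at 135 with H2O2 and 127 in Control, and ERBB2 at 99.5 and 102. EGFR (57.2 and 71.1) was the next receptor, followed by ERBB3 (42.7 and 54.0), and in neither group did the libraries of these receptors overlap. SPRY2 was at 40.05 with H2O2 and 39.4 in Control. HBEGF stood at 81.3 per kb with H2O2, 7th of the 10 members, and at 37.8 in Control, the lowest of the 10, where its libraries (32.4 and 43.2) enclosed those of SPRY2 (37.5 and 41.2). No other neighbours in the order of either group had overlapping libraries. The order depends on the length used, and no other length was tried. The union was 3018 bases for HBEGF, 3038 for SPRY2 and 10321 for ERBB2. Their longest transcripts had 2386, 2708 and 4930 bases, so close places such as those of HBEGF and SPRY2 in Control are not firm. The place of AREG also carries the uncertainty of its count given above.

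Of the summed per-kilobase level of the 4 ligands, HBEGF made up 7.004% and 7.18% in the H2O2 libraries and 3.45% and 4.83% in the Controls. EREG held the largest share, 57.4% and 58.7% with H2O2 and 64.8% and 54.8% in Control, with overlapping groups. AREG made up 23.96% and 22.1% with H2O2, within its Control shares of 19.0% and 25.5%. TGFA made up 11.6% and 12.0% with H2O2, below its Control shares of 12.8% and 14.9%. HBEGF was the ligand whose share was higher in both H2O2 libraries than in both Controls. All 4 shares rest on the same exonic lengths and include AREG, whose level is uncertain, so their sizes are uncertain too.

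**Figure D4:**
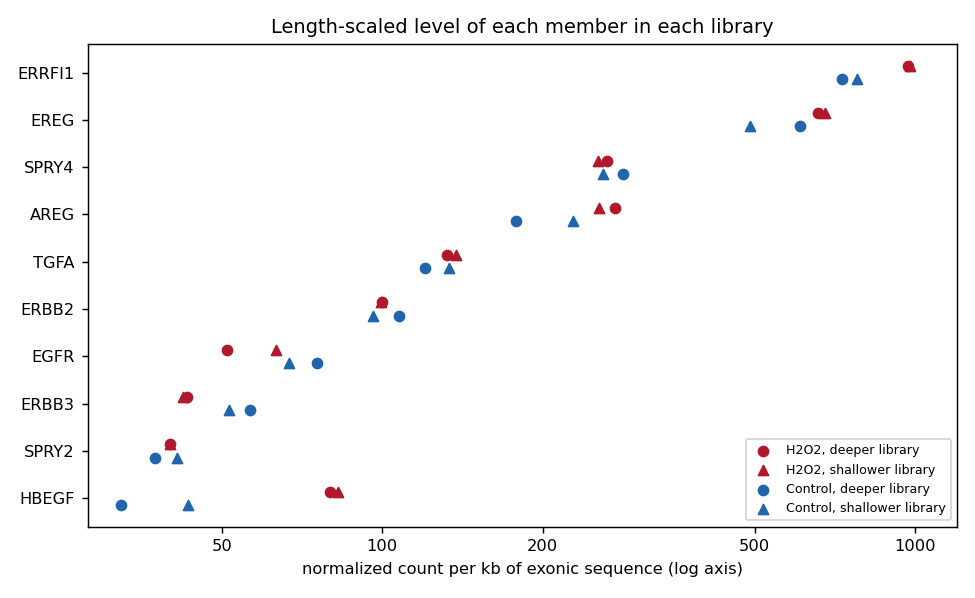
Normalized count per kilobase of exonic sequence (horizontal log axis) of each member in the H2O2 libraries (red) and the Control libraries (blue), circles for the deeper and triangles for the shallower library, ordered by the Control mean. HBEGF at the bottom is at 79.96 and 82.7 with H2O2 and at 32.4 and 43.2 in Control.

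The pattern over the 4 libraries most like that of HBEGF, by Euclidean distance of mean-centred log2 values among 12118 genes with a mean of at least 50, belonged to JUNB, PPP1R15A and GPR3. Their distances were 0.12, 0.16 and 0.17. JUNB, an AP-1 subunit, had 3377 and 3109 normalized counts with H2O2, against 1287 and 1678 in Control. The higher value in the shallower Control, as in HBEGF, is part of the pattern by which such genes were picked. The nearest genes to ERBB2, the receptor with the highest mean, were TLN1, PTBP3 and ACIN1, at distances of 0.017, 0.018 and 0.020. With 4 points, such likeness is a description of these libraries only.

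Of 56 other genes of the pathway chosen by role, 51 were listed, and of these the authors' deposited table had 4 higher (FOS, FOSL1, EGR1 and DUSP5), 4 lower (NRG4, PLCG1, MAP2K2 and BRAF) and 43 short of the threshold. Of all listed genes, 2.58% were higher and 4.62% lower by that test. The median log2 ratio of the 51 genes was -0.048 there. limma called 2 of the 51 higher (FOS and FOSL1) and 3 lower (NRG4, PLCG1 and MAP2K2), against 1.52% and 2.58% of all genes. EGF, EPGN, NRG3, ADAM12 and SPRY3 were not listed under these symbols.

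Among the other ligands, NRG4, a neuregulin that binds ERBB4, was the 1 of 4 past the threshold (4.62% of all genes were lower). It fell to 59.8 and 61.4 normalized counts with H2O2, against 115 and 102 in Control, with no overlap. The log2 ratio was -0.84 in the authors' deposited table (adjusted p = 0.00643), and limma gave -0.82 ± 0.19 (SE, adjusted p = 0.0271). It lost the call when either H2O2 library, deeper or shallower, was left out (limma, adjusted p = 0.108 and 0.0590) and kept its direction in all 4 fits. In the authors' deposited table NRG1, NRG2 and BTC had log2 ratios of -0.12, -0.18 and 0.10. ERBB4, the remaining receptor, was low, with means of 17.1 with H2O2 and 22.2 in Control in the authors' deposited table (log2 ratio -0.38, adjusted p = 0.686).

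Of the 5 listed proteases and iRhom proteins that release ligands, none passed in the authors' deposited table or in limma, and 1 was below an unadjusted p of 0.05 in each, where 19.6% and 20.2% of all genes were. ADAM17, the main protease for HBEGF, AREG, EREG and TGFA, had 535 and 556 normalized counts with H2O2, against 559 and 570 in Control. Its log2 ratio was -0.048 in the authors' deposited table (adjusted p = 0.908). RHBDF1 and RHBDF2, which encode the iRhoms that carry ADAM17 to the surface, had log2 ratios of -0.45 and -0.23 (adjusted p = 0.0724 and 0.351) in the authors' deposited table.

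PLCG1, encoding a phospholipase activated by EGFR, was the 1 of 10 adaptor and effector genes past the threshold (4.62% of all genes were lower). It had 720 and 831 normalized counts with H2O2, against 1120 and 1120 in Control, and a ratio of 0.693 in the authors' deposited table (adjusted p = 0.00181). limma called it (adjusted p = 0.0146), but not without the deeper H2O2 library (0.366). SOS1, an exchange factor that activates RAS, had a log2 ratio of -0.42 (adjusted p = 0.0535), and CBL, a ubiquitin ligase that marks EGFR for breakdown, had -0.30 (0.141) in the authors' deposited table. In the RAS-RAF-MEK-ERK list, 2 of 10 passed in the authors' deposited table, both lower, against 4.62% of all genes. MAP2K2 (MEK2) had 133 and 134 normalized counts with H2O2, against 200.3 and 241 in Control. limma called it (adjusted p = 0.0183), but not when either H2O2 library, deeper or shallower, was left out (0.0805 and 0.0502). BRAF had 216 and 180 with H2O2, against 296 and 259 in Control, and passed in the authors' deposited table (adjusted p = 0.0416) but not in limma (0.0792). Its limma value was -0.49, and -0.20 after the length correction. MAP2K1 (MEK1) had a log2 ratio of 0.28 (adjusted p = 0.285) in the authors' deposited table.

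Among 13 other inhibitors, DUSP5, a nuclear phosphatase of ERK, was the 1 past the threshold (2.58% of all genes were higher). It had 628 and 798 normalized counts with H2O2, against 382 and 570 in Control, and a ratio of 1.498 in the authors' deposited table (adjusted p = 9.29e-04). limma left it just short (0.60, adjusted p = 0.0563), with 0.31 without the deeper Control and 0.89 without the shallower. DUSP6, a cytoplasmic ERK phosphatase, and LRIG2 had log2 ratios of 0.28 and -0.38 (adjusted p = 0.198 and 0.130), and SPRY1, another Sprouty gene, had -0.22, in the authors' deposited table. Of 8 ERK-responsive genes, 3 were called higher in the authors' deposited table and 2 in limma. Of all genes, 2.58% and 1.52% were. FOS had 2157 and 2894 normalized counts with H2O2, against 407 and 589 in Control (limma adjusted p = 8.79e-07). FOSL1 had 581 and 624 with H2O2, against 266 and 488 in Control (limma 0.74, adjusted p = 0.0494), and its limma value was 0.30 without the deeper Control (adjusted p = 0.0683) and 1.179 without the shallower. EGR1 had 4566 and 4394 with H2O2, against 2537 and 3891 in Control, with a ratio of 1.39 in the authors' deposited table (adjusted p = 0.00855). limma gave 0.51 (adjusted p = 0.0806), with 0.20 without the deeper Control and 0.82 without the shallower. IER3 and PHLDA1 had log2 ratios of 0.27 and 0.22 (adjusted p = 0.3002 and 0.466) in the authors' deposited table. The shallower Control was higher than the deeper by a median of 0.31 on the log2 scale over this list, and its part in these results was not tested.

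**Figure D5:**
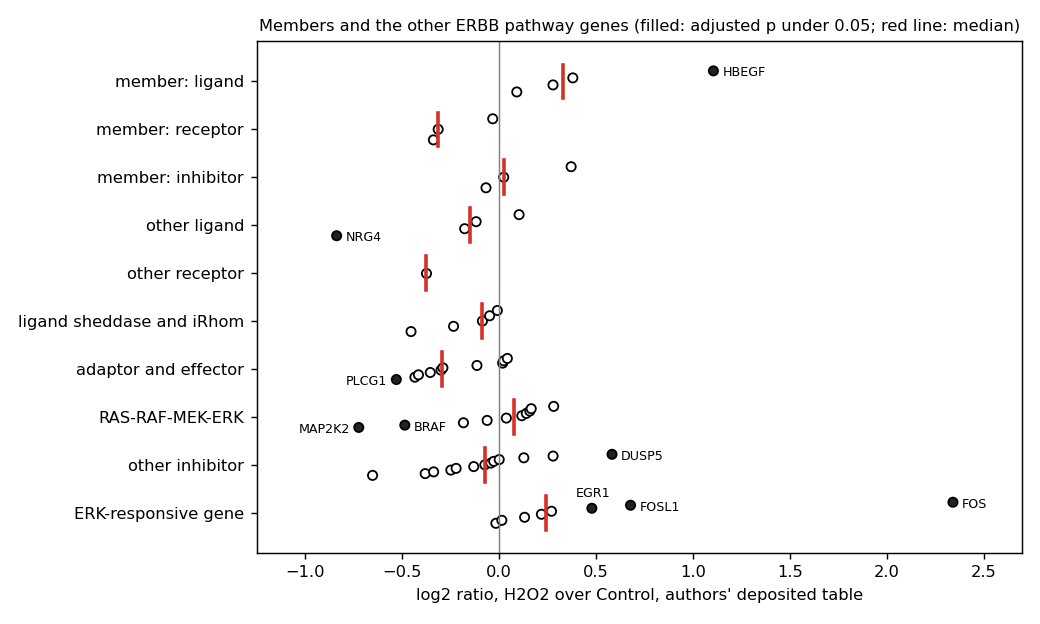
Log2 ratio of group means, H2O2 over Control (horizontal axis), in the authors' deposited table for the members by role and for the 7 lists of other pathway genes, with each circle a gene, filled circles past an adjusted p of 0.05 and red lines at list medians. HBEGF at 1.11 and FOS at 2.34 lie furthest to the right.

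The libraries held the colon epithelial markers EPCAM (means of 2086 with H2O2 and 1714 in Control), KRT8 (2298 and 1864) and CDH1 (1116 and 1148) in the authors' deposited table. The other 4 epithelial markers were lower, with means of 257 and 256 for KRT18, 172 and 199.5 for CDX2, 175 and 198 for VIL1 and 8.43 and 9.79 for KRT20 (with H2O2 and in Control) in the authors' deposited table. KRT20, a marker of differentiated intestinal epithelium, was close to the lowest mean listed, 5.46. None of the 7 listed epithelial markers passed there or in limma, with 2 (EPCAM and KRT8, both higher) below an unadjusted p of 0.05 in each, against 19.6% and 20.2% of all genes. Of 14 markers of fibroblasts, leukocytes and endothelium, 4 were listed, and their summed normalized counts were 755 to 829 with H2O2 and 924 to 1004 in Control, nearly all from COL1A1 and COL3A1. COL1A1 fell to a mean of 553 with H2O2, against 753 in Control, and CD14 rose to 14.4, against 3.94 in Control, in the authors' deposited table (adjusted p = 0.0211 and 0.0270). limma called COL1A1 (0.0343) and not CD14 (0.0794). The leukocyte marker PTPRC and the endothelial markers PECAM1, VWF and CDH5 were among those not listed. The part of the listed markers in the results was not tested.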

How the data were processed

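Poly(A)-selected RNA-seq libraries of 2 H2O2 and 2 Control samples of HCT116 cells were compared. Per the submitters' processing notes, the tools were STAR, HTSeq, DESeq, Trim Galore, FastQC and CASAVA 1.8 with build hg19, and no roles or settings are given. The deposited table, per the file headers, holds a signal (group means of counts divided by size factors), the fold (a ratio of means), its log2 value, and the authors' DESeq p-value with its adjustment. No column holds a single sample.

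For each group mean, the whole counts of both libraries that give it within 1e-09 were searched, with exactly 1 solution for all 16376 genes in each group, and size factors recomputed from these counts equalled the solved ones to 8.9e-16 or better. The main test is the authors' (adjusted p under 0.05). limma 3.58.1 in R 4.3.3, with its trend option on log2(normalized count + 1), gave Benjamini-Hochberg adjusted p-values and 95% intervals that are not adjusted. Its fold changes understate low genes. Both steps were tested on simulated data. The simulation for limma gave all libraries the same spread, so it does not cover the wider spread between the Controls. Exonic lengths are from GENCODE 29, on GRCh38, and 81.3% of listed genes matched by symbol. Of the longest transcripts of the 10 members, 0% of 75-base words occurred in other genes of that release. Being on GRCh38, that release cannot speak for the AREGB copy in hg19. The length correction subtracted a lowess trend on exonic length from each library, left genes without a length as they were, and was chosen after the values were seen.

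Members, lists and tests were chosen with earlier results of these data known. Named genes are the 10 members, the other pathway genes past the threshold, the 2 of each list nearest to it (1 of these is not reported here), the 3 genes nearest in pattern to HBEGF and to ERBB2, and cell type markers. SPRY1, BTC and ADAM17 were named after their values were seen.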

Additional observations from a re-analysis of the deposited data

How the results depend on the processing

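HBEGF kept its direction and stayed past the threshold under all 11 alternatives tried. TGFA and SPRY4 kept their direction and stayed below the threshold under all 11. The count of members called higher was 1 to 3 and of members called lower 0 to 2 with a library left out in turn, and counts of other pathway genes were 2 to 9 higher and 0 to 9 lower. Fits without a Control take their spread from the H2O2 libraries alone, which differ less, and a lone library is assumed to vary like the other group. Other pathway genes called higher numbered 2 in limma, 1 with scaling by total count, 1 with pseudocount 0.5, 2 with pseudocount 5 and 2 among genes with a mean of at least 10. All genes called numbered 642 at an adjusted p under 0.01 in the authors' deposited table, 671 in limma, 669 with scaling by total count, 663 and 685 with pseudocounts of 0.5 and 5, 655 with a mean of at least 10, and 284 to 3641 (512 without the shallower H2O2 library, 3641 without the shallower Control) with a library left out. The limma log2 fold change of ERBB2 turned to 0.052 without the deeper Control and to 0.12 after the length correction, and that of SPRY2 to -0.041 and -0.072. The cause was not tested. No paired analysis was possible because the table ties no library to a replicate number. HBEGF and SPRY2, with 102 to 250 and 117 to 126 reads, have the fewest reads and the widest intervals.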
